A study of Mus musculus with 16 samples.

Results

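The ventral and the dorsal cloaca of mouse embryos at embryonic day 10.5 (E10.5) were compared across all genes, using 12283 of the 23234 features in the deposited expression table. A feature was kept when it had at least 1 FPKM (fragments per kilobase, a level corrected for transcript length and sequencing depth) in either region, and 726 short RNA rows (names starting with Mir, Snor, Scarna or Rnu) were left out. Another 10225 features lay below the minimum, 6382 of them listed at 0 in both regions. The study sequenced RNA of the cells that give rise to the urethra, towards an atlas of the genital tubercle, with 16 libraries in all, 8 of them from E10.5. The ventral cloaca, on the future urethral side, and the dorsal cloaca, on the future hindgut side, each gave 4 libraries. All came from wild-type male embryos of the outbred CD1 stock, aged 10.5 dpc (days post coitum), and each embryo gave both regions. The other libraries, 4 of urethra and 4 of hindgut, came from wild-type CD1 males at 13.5 dpc. Each library was a single sample rather than a pool, cut by laser from stained frozen sections, and the RNA was amplified before sequencing.

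The table holds 1 FPKM value per region, which stands for its 4 libraries together. There is therefore no spread between embryos, no standard error and no p-value, and none of the differences could be checked against replicates. The number of reads behind a value is unknown. To be counted as higher in one of the regions, a feature had to differ by at least 1 in log2(FPKM + 1), which is 2-fold on the FPKM + 1 scale. This is a rule of size and not of significance, and the scale understates the change of low genes. Values are FPKM, so that levels of different genes are per transcript length, and every difference is ventral minus dorsal on the log2(FPKM + 1) scale. In tissue pieces like these, fewer cells of a type and less RNA per cell cannot be told apart. A gene marked "shared span" overlaps another feature in the table, and its reads are less certain to be its own.

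The cloaca is the chamber at the tail end of the embryo into which the gut and the urinary tract both open. It is lined by endoderm, meets the surface ectoderm at the cloacal membrane on its ventral side, and is surrounded by mesenchyme. A septum later divides it into a dorsal hindgut and a ventral urogenital sinus, from which the urethra forms. Signals from this epithelium, above all the hedgehog ligand Shh, pattern the genital tubercle.

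The promoters of 7 genes far apart between the regions are printed here from RefSeq (build GRCm38.p6), to show the sequence at the start of genes that the regions expressed at very different levels. Crabp1, Hdc, Dapl1 and Sct were higher ventrally, and Sst, Cdx2 and Sycn dorsally. Each runs 5′ to 3′ from 250 bases before the annotated start to 50 bases after it, on the strand of the gene. Capitals mark matches on either strand to any of 8 short motifs, which are spelled out after the sequences. Crabp1 lies at chr9:54764498-54764797 on the plus strand, Hdc at chr2:126618629-126618928 on the minus strand, Dapl1 at chr2:59484403-59484702 on the plus strand and Sct at chr7:141279084-141279383 on the minus strand. Sst lies at chr16:23890795-23891094 on the minus strand, Cdx2 at chr5:147307200-147307499 on the minus strand and Sycn at chr7:28540635-28540934 on the plus strand.
Crabp1: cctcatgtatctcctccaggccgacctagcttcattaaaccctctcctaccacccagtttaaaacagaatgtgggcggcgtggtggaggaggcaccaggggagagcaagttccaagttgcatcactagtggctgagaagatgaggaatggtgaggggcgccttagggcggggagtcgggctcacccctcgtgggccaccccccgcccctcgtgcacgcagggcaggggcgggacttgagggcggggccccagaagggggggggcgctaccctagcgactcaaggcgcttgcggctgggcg
Hdc: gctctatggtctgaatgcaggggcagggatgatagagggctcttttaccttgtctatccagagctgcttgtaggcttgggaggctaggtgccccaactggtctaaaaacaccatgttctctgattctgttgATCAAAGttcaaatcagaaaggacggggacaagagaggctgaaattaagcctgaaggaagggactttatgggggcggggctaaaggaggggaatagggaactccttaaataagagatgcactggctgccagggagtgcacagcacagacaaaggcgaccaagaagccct
Dapl1: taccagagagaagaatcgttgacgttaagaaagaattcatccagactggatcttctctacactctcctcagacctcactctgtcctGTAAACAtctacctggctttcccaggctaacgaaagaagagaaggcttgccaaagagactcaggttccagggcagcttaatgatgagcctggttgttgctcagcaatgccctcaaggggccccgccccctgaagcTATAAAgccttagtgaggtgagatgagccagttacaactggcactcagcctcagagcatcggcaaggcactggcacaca
Sct: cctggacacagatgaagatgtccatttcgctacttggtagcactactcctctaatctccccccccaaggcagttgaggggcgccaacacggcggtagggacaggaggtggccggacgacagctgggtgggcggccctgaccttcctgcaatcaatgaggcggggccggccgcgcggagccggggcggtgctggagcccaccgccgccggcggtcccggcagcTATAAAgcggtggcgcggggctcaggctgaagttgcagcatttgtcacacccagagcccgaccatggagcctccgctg
Sst: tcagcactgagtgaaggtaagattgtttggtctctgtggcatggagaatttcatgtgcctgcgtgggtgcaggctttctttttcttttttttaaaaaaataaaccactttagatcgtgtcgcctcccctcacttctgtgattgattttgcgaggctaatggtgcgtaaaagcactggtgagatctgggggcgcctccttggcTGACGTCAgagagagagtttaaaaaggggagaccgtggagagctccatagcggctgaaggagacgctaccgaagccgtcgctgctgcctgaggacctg
Cdx2: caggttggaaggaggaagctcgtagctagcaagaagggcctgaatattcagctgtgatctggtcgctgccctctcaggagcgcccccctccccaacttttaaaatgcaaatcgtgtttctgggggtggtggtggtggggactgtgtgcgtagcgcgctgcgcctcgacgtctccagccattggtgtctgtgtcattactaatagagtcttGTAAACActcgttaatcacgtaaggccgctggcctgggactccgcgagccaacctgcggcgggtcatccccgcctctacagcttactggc
Sycn: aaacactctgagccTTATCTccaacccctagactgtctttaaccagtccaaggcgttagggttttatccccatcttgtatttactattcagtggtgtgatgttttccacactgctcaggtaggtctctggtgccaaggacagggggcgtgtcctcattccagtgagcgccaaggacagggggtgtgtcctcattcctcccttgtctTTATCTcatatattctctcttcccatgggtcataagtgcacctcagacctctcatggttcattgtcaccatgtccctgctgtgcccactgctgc

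Dapl1 and Sct, both higher ventrally, had a TATA box (TATAAA) with its first base at position -29 and -28 from the start. Of all 32851 RefSeq promoters of this length, 13.6% hold one anywhere on either strand. On the strand of the gene and in a window around these positions, 1.99% hold one. The forkhead motif (TGTTTAC) lay on the opposite strand in the Dapl1 promoter at position -164 and in the Cdx2 promoter at -40, and it is found in 3.65% of all promoters. Hdc had a match to the TCF/LEF motif (CTTTGAT) on the opposite strand at position -119, found in 3.73% of promoters. Sycn had a pair of matches to the GATA motif (AGATAA) on the opposite strand, at -236 and -44, and 11.2% of promoters hold at least 1. Sst had a cyclic AMP response element (TGACGTCA, the same on both strands) at -48. This motif, added to the search after the sequences had been read, is found in 1.79% of promoters. The homeobox core (TAATTA) is held by 5.29% of promoters and by none of these 7. The AP-1 motif (TGANTCA) is held by 7.81% of promoters and by none of the 7. The same is true of the CDX motif (CAATAAA), held by 4.60% of all promoters. The marked matches do not overlap one another. No motif of the search matched in the Crabp1 promoter. A match is a description of the letters in this window and not a sign that a factor binds there.

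Of the 12283 features, 1280 were counted as higher in the ventral cloaca, which is 10.4% of those kept, and 1157 as higher in the dorsal cloaca, which is 9.42%. Both directions together came to 2437 features (19.8%). The remaining 9846 lay within 2-fold, and the median difference was 0.04. The largest differences lay on the ventral side. A difference of at least 3 was reached by 62 features ventrally and 30 dorsally, one of at least 4 by 18 ventrally and 4 dorsally, and one of at least 5 by 9 ventrally and none dorsally. Many of the counted features lay below the minimum in the other region: 517 of those higher ventrally had less than 1 FPKM in the dorsal cloaca, and 491 of those higher dorsally had less than 1 FPKM in the ventral cloaca. The features higher ventrally made up 5.04% of the summed FPKM of kept features in the ventral cloaca and 1.42% in the dorsal cloaca. The features higher dorsally made up 1.32% in the ventral cloaca and 4.07% in the dorsal cloaca. Across kept features, the Spearman correlation of the levels in the 2 regions was 0.88, over features that come from the same embryos and amplification method.

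**Figure D1:**
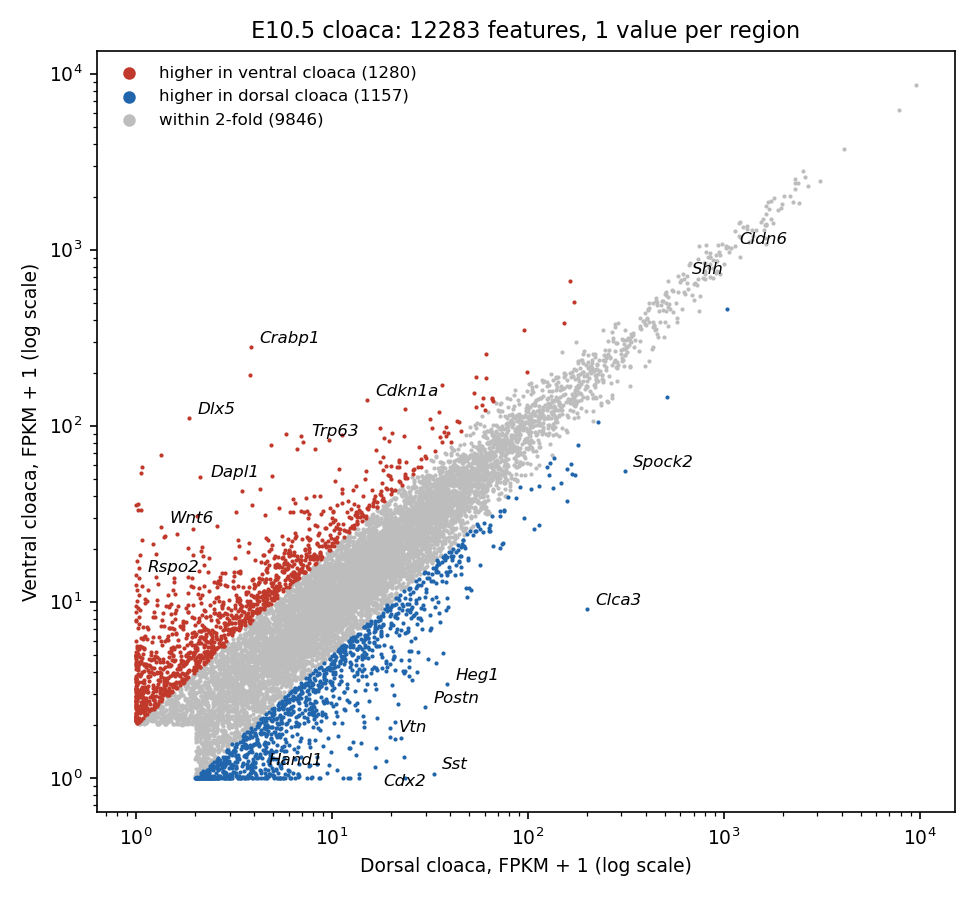
Level of every kept feature in the ventral cloaca (vertical axis) against the dorsal cloaca (horizontal axis), as FPKM + 1 on log scales, with 1 point per feature. Red points are the 1280 features counted as higher ventrally, blue points the 1157 higher dorsally and grey points the 9846 within 2-fold, and the abundant genes Shh and Cldn6 lie among the grey points.

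The share counted was smaller at higher levels. Of 1650 features with a mean under 2 FPKM, 19.6% were higher ventrally and 20.3% dorsally. Of 4851 features with a mean of 5 to 20 FPKM, 9.07% were higher ventrally and 7.88% dorsally, and of 594 features over 100 FPKM, 2.53% were higher ventrally and 1.85% dorsally. Both directions showed the same order of classes. At the margin of the minimum, Gpm6a was kept at 1.001 FPKM in the ventral cloaca, and Ulbp1 was left out at 0.9997 FPKM there. At the margin of the difference, AW209491 was counted at 8.76 FPKM ventrally against 3.88 dorsally, while Ccl25 was just short at 3.09 FPKM ventrally against 1.04 dorsally, and on the other side Phyhd1 was counted at 0.92 FPKM ventrally against 2.84 dorsally while Eif4ebp2 was just short at 106 FPKM ventrally against 213 dorsally. The most abundant features were within 2-fold. Lars2, Rpl41 and Rps27 led both regions, and the growth factor gene Mdk (shared span) had 2573 FPKM ventrally and 2601 dorsally.

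**Figure D2:**
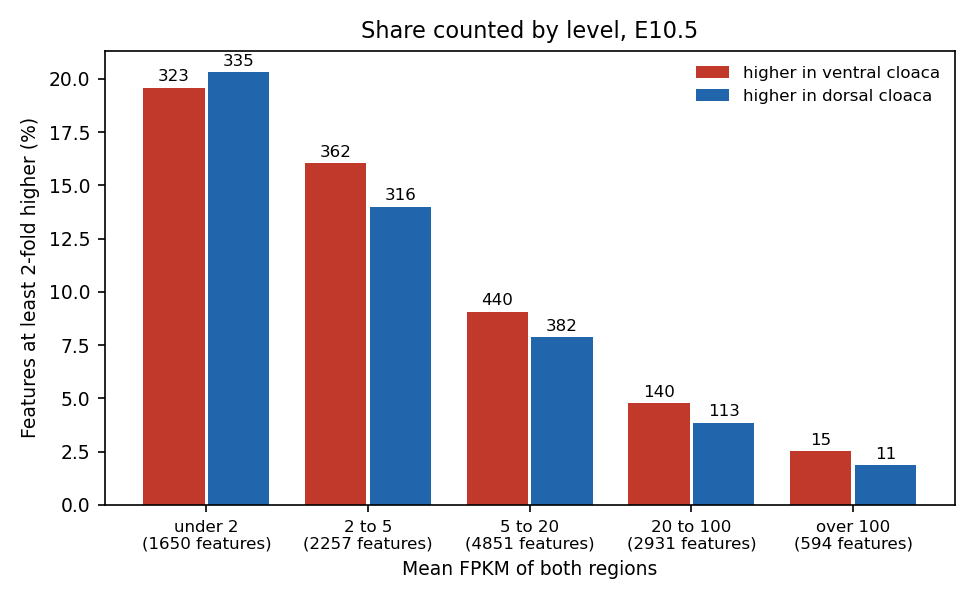
Percentage of kept features counted as higher in the ventral (red, left bar) or dorsal (blue, right bar) cloaca, by the mean FPKM of the 2 regions, with the number counted above each bar and the number of features under each class. In the lowest class 19.6% were higher ventrally and 20.3% dorsally, and in the highest 2.53% ventrally and 1.85% dorsally.

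Markers of 13 cell types that a laser cut could hold were read in both regions. Over all kept features, 10.4% were higher ventrally and 9.42% dorsally. Epithelial genes were abundant on both sides: 13 of 15 were kept, only Foxa1 was counted, dorsally, and their FPKM summed to 2642 ventrally and 2742 dorsally. Cldn6, a tight junction gene of embryonic epithelium, had 1020.0 FPKM ventrally and 1086 dorsally, and Epcam had 184 FPKM ventrally and 237 dorsally. Surface ectoderm markers had the largest median difference of the 13 marker lists, 2.43, with 9 of 13 kept members higher ventrally and 2 (Krt17 and Grhl3) dorsally, and a sum of 260.2 FPKM ventrally and 38.2 dorsally. Mesenchymal markers were present on both sides and mixed in direction, with 3 of 11 higher ventrally, 4 dorsally and a sum of 211 FPKM ventrally and 148 dorsally. Osr1 had 105 FPKM ventrally and 42.2 dorsally, and Twist1 had 9.19 FPKM ventrally and 1.98 dorsally, while Col3a1 had 3.36 FPKM ventrally and 13.2 dorsally and Twist2 had 1.02 FPKM ventrally and 4.37 dorsally. The part of ectoderm and mesenchyme in the differences of other gene groups was not tested.

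Markers of other cell types were also present. Red blood cell markers summed to 1183 FPKM ventrally and 891 dorsally, nearly all of it embryonic globin. Hba-x had 708 FPKM ventrally and 585 dorsally and Hbb-y had 350.3 FPKM ventrally and 239.9 dorsally. Of their 7 kept members 2 were higher ventrally and 1 dorsally, Gata1, which had 0.0243 FPKM ventrally and 4.035 dorsally. Endothelial markers summed to 17.8 FPKM ventrally and 5.75 dorsally, with 2 of 12 kept; Esam had 8.62 FPKM ventrally and 0.278 dorsally, while Pecam1 had 0.142 FPKM ventrally and was listed at 0 dorsally. Macrophage markers summed to 5.33 FPKM ventrally and 11.1 dorsally, with C1qa and Lyz2 listed at 0 in both regions. Muscle markers summed to 5.54 FPKM ventrally and 13.3 dorsally, and their members went both ways. Des, an intermediate filament gene of muscle, had 1.76 FPKM ventrally and 10.9 dorsally and Cnn1 (shared span) was listed at 0 ventrally and had 1.8 FPKM dorsally. On the other side Tagln (shared span) had 2.2 FPKM ventrally and 0.354 dorsally, Myh11 had 0.84 FPKM ventrally and 0.0793 dorsally and Acta2 had 0.693 FPKM ventrally and 0.144 dorsally. Myod1, Myog, Pax3 and Pax7 were listed at 0 in both. Neural markers summed to 154 FPKM ventrally and 87.9 dorsally, almost all from Isl1, a gene also of cloacal tissue, which had 138 FPKM ventrally and 65.3 dorsally, and Sox10, Foxd3 and Tubb3 were listed at 0 in both. Yolk sac and visceral endoderm markers summed to 32.7 FPKM ventrally and 71.6 dorsally, with Apoa1 listed at 0 ventrally against 22.6 FPKM dorsally and Afp at 5.53 FPKM ventrally against 12.5 dorsally. Nephric duct markers summed to 116 FPKM ventrally and 140 dorsally, with Gata3 at 38.9 FPKM ventrally against 7.08 dorsally, Ret at 2.2 FPKM ventrally against 7.03 dorsally and Pax8 listed at 0 in both. Mesothelial markers summed to 95.7 FPKM ventrally and 150.5 dorsally, most of it from Krt19, which is also in the epithelial list and had 86.2 FPKM ventrally and 143 dorsally, and the 2 counted members were higher ventrally, Lrrn4 at 3.16 FPKM ventrally against 0.679 dorsally and Bnc1 at 2.2 FPKM ventrally against 0.0123 dorsally. Germ cell markers summed to 32.8 FPKM ventrally and 51.1 dorsally, with Dazl listed at 0 in both. Most of the sum came from Kit, at 12.7 FPKM ventrally against 24.3 dorsally, and Prdm1, at 9.39 FPKM ventrally against 19.6 dorsally. The counted members went both ways, Tfap2c at 6.03 FPKM ventrally against 0.143 dorsally and Pou5f1 listed at 0 ventrally against 1.36 FPKM dorsally. Notochord and tail bud markers summed to 806 FPKM ventrally and 732 dorsally, most of it from Shh, which is also in the epithelial list. T and Noto were listed at 0 ventrally and had 0.20 and 0.144 FPKM dorsally. The only counted member, Fgf8, had 8.42 FPKM ventrally and was listed at 0 dorsally. Per the labels all embryos were male: Xist had 0.26 FPKM ventrally and 0.10 dorsally, and 4 Y-linked genes were read in both regions.

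Below the 10 largest ventral differences, the next genes in rank mixed regulators, signals and stress proteins. Dapl1, a gene of differentiating epithelium, had 49.9 FPKM ventrally and 1.13 dorsally, and Runx1, a transcription factor gene best known from blood, had 16 FPKM ventrally and 0.0106 dorsally. Nfkbie, which encodes an inhibitor of NF-kB, had 22.5 FPKM ventrally and 0.405 dorsally. Apcdd1, an inhibitor of Wnt signalling, had 88.1 FPKM ventrally and 4.79 dorsally, and Sulf1, which trims sulfates from heparan sulfate outside the cell, had 50.8 FPKM ventrally and 3.96 dorsally. Sp6, a zinc finger gene of limb ectoderm and teeth, had 41.4 FPKM ventrally and 2.46 dorsally. The heat shock genes Hspb1 and Hspa2 stood at 79.5 FPKM ventrally against 6.12 dorsally and at 23.2 FPKM ventrally against 0.609 dorsally. Sptlc3, a subunit gene of the enzyme that starts sphingolipid synthesis, had 24.9 FPKM ventrally and 0.94 dorsally, and Gadd45g, a growth arrest gene, had 12.8 FPKM ventrally and 0.266 dorsally. Lmo2, a partner of Gata factors in blood and vessel cells, had 9.87 FPKM ventrally and 0.0371 dorsally. Rhox4g, a homeobox gene in a cluster of near copies on the X chromosome, whose reads may have been split between them, had 21.4 FPKM ventrally and 0.0682 dorsally, and the scaffold gene Begain had 22.2 FPKM ventrally and 0.391 dorsally. Of these genes Apcdd1, Hspb1 and Sulf1 had more than 3 FPKM dorsally, and the others less.

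Leading dorsal genes below the first ranks included matrix, secreted and membrane proteins. Sycn, which encodes a zymogen granule protein of the pancreas, was listed at 0 ventrally and had 11.4 FPKM dorsally, and Bik, a gene that promotes cell death, was listed at 0 ventrally and had 11.1 FPKM dorsally. Postn (periostin, a matrix protein) had 1.52 FPKM ventrally and 28.7 dorsally, and Vtn (vitronectin, a matrix and plasma protein) had 0.713 FPKM ventrally and 18.8 dorsally. Heg1, a membrane protein gene of heart and vessel development, had 2.42 FPKM ventrally and 37.5 dorsally, and Pkdcc, a secreted kinase of the skeleton, had 1.08 FPKM ventrally and 19.9 dorsally. Gal3st1, which makes sulfated glycolipids, had 0.909 FPKM ventrally and 18.9 dorsally, and Gss, glutathione synthetase, had 0.573 FPKM ventrally and 13 dorsally. Hand1, a basic helix-loop-helix factor of heart and extraembryonic mesoderm, had 0.0595 FPKM ventrally and 8.39 dorsally. Amph, a gene of endocytosis, had 3.47 FPKM ventrally and 33.1 dorsally, and Arl10 had 4.14 FPKM ventrally and 35.9 dorsally, both with more than 3 FPKM in each region. Mylpf, a myosin light chain gene of fast skeletal muscle, had 0.175 FPKM ventrally and 8.63 dorsally, and the muscle markers Des and Tagln were counted on opposite sides.

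**Figure D3:**
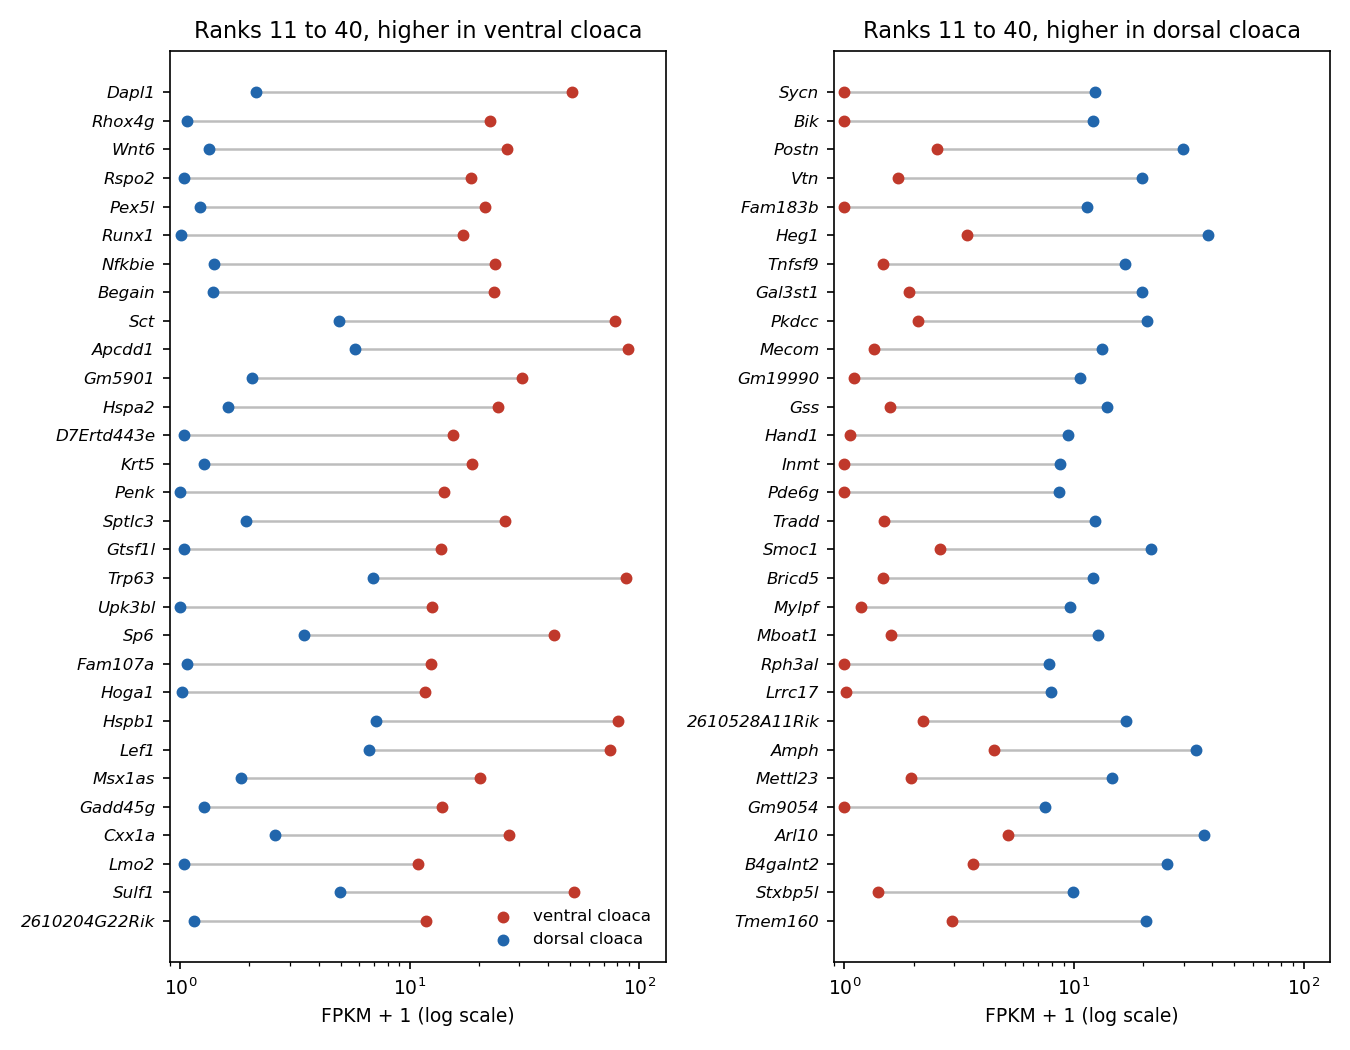
Level in the ventral (red) and dorsal (blue) cloaca of the genes ranked 11 to 40 by difference among those with at least 5 FPKM in the higher region, as FPKM + 1 on a log scale, with ventral leaders on the left and dorsal leaders on the right. Most ventral leaders sit close to 1 dorsally, as Runx1 does, and dorsal leaders such as Sycn and Bik sit at 1 ventrally because they were listed at 0.

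Among transcription factor families, T-box, Dlx and Tfap2 genes had the highest medians. Of 6 kept T-box genes, 4 (66.7%) were higher ventrally and none dorsally, with a median difference of 1.85. Over all features the shares were 10.4% ventrally and 9.42% dorsally. The Dlx genes had 3 of 4 higher ventrally and a median of 3.80. Tbx3, needed for genital and limb development, had 168 FPKM ventrally and 35.3 dorsally, Tbx5 had 9.1 FPKM ventrally and 0.0155 dorsally, and Tbx4 had 5.02 FPKM ventrally and was listed at 0 dorsally. Both kept Tfap2 genes, regulators of surface ectoderm, were higher ventrally, and Tfap2a and Dlx3 are also among the surface ectoderm markers: Tfap2c had 6.03 FPKM ventrally and 0.143 dorsally and Tfap2a had 3.59 FPKM ventrally and 0.0618 dorsally. Of 19 kept Klf and Sp genes, 6 were higher ventrally and 1 dorsally, although their median was -0.10. Sp8, a factor of limb bud and genital ectoderm, had 14.6 FPKM ventrally and 4.93 dorsally, Klf16 had 11.1 FPKM ventrally and 1.57 dorsally, and Klf5 had 49.7 FPKM ventrally and 22.6 dorsally. Alx4 had 9.42 FPKM ventrally and 0.115 dorsally and Eya1, a gene of urogenital development, had 9.71 FPKM ventrally and 3.04 dorsally. Pax9 had 6.47 FPKM ventrally and 2.45 dorsally, and Gata2 had 8.33 FPKM ventrally and 2.8 dorsally.

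Forkhead genes had 2 of 25 (8.00%) higher ventrally, 6 (24.0%) dorsally and a median of -0.20. All kept features had shares of 10.4% ventrally and 9.42% dorsally and a median of 0.04. Besides Foxa1, Foxc2 had 2.47 FPKM ventrally and 6.58 dorsally, and Foxn3 went the other way at 39.5 FPKM ventrally against 16.7 dorsally. Tissue-specific basic helix-loop-helix genes split, with 3 of 12 higher ventrally and 4 dorsally. Ascl2 had 1.45 FPKM ventrally and 0.186 dorsally, and Nhlh1 had 0.221 FPKM ventrally and 1.76 dorsally. Mkx had 0.586 FPKM ventrally and 3.2 dorsally and Irx1, of the same homeobox class, had 0.527 FPKM ventrally and 3.55 dorsally. Nkx2-3, a factor of gut mesenchyme, was listed at 0 ventrally and had 4.42 FPKM dorsally, and Barx2 was listed at 0 ventrally and had 1.96 FPKM dorsally. Immediate early genes, which respond within minutes to stimuli, were mixed: of 16 kept, 3 were higher ventrally and 4 dorsally (median -0.58). Jun had 13.3 FPKM ventrally and 44.4 dorsally and Dusp1 had 6.02 FPKM ventrally and 15.6 dorsally, while Junb had 5.34 FPKM ventrally and 0.312 dorsally and Egr1 had 2.51 FPKM ventrally and 0.0681 dorsally. The large Zfp family of zinc finger genes had 24 of 333 (7.21%) higher ventrally and 14 (4.20%) dorsally, both below the shares over all features.

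Signalling genes outside the classical Wnt, BMP and hedgehog lists also differed. Of 13 kept genes of neuropeptides and peptide hormones, 6 (46.2%) were higher ventrally and 1 (7.69%), Sst, dorsally (median 0.59). Over all features the shares were 10.4% and 9.42%. Sct, the secretin gene, had 76.9 FPKM ventrally and 3.89 dorsally, Stc1 (stanniocalcin) had 20.6 FPKM ventrally and 2.75 dorsally, and Penk, which encodes the precursor of enkephalins, had 13.1 FPKM ventrally and was listed at 0 dorsally. Ghrl (ghrelin) had 4.49 FPKM ventrally and 0.513 dorsally, Pomc had 7.22 FPKM ventrally and 2.82 dorsally, and Kiss1 had 1.76 FPKM ventrally and 0.0855 dorsally. Hdc, the enzyme that makes histamine, had 32.4 FPKM ventrally and 0.0163 dorsally. Netrins, Slits and their receptors had 5 of 12 higher ventrally and 2 dorsally (median 0.44). The netrin receptor genes Unc5b and Unc5c stood at 80.8 FPKM ventrally against 18.5 dorsally and at 41.8 FPKM ventrally against 16.9 dorsally, and Ntn1 had 1.34 FPKM ventrally and 0.0941 dorsally. The guidance gene Slit2 (shared span) had 5.06 FPKM ventrally and 13.5 dorsally.

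Semaphorins, plexins and neuropilins, which steer axons and vessels, lay on both sides, with 3 of 24 (12.5%) higher ventrally and 5 (20.8%) dorsally. The shares over all features were 10.4% ventrally, which is near that of this group, and 9.42% dorsally. Sema3a had 10.0 FPKM ventrally and 1.07 dorsally and Sema3d had 2.38 FPKM ventrally and 0.218 dorsally, while Sema3c had 15.1 FPKM ventrally and 42 dorsally, Sema3b had 2.73 FPKM ventrally and 8.06 dorsally and Sema5b had 1.24 FPKM ventrally and 9.62 dorsally. Members of the Sema3 subfamily were thus on both sides. Of 11 genes of tumour necrosis factor ligands and receptors, 3 were higher ventrally and 2 dorsally (median 0.76). Tnfrsf19, a receptor of ectodermal organs, had 51.7 FPKM ventrally and 18.3 dorsally, and Tnfrsf1a, the main TNF receptor, had 3.73 FPKM ventrally and 10.2 dorsally. Interleukin receptor genes were also split: Il17ra had 12.7 FPKM ventrally and 0.922 dorsally and Il13ra1 had 2.8 FPKM ventrally and 13.2 dorsally. The chemokine receptor gene Cxcr4 had 1.05 FPKM ventrally and 7.28 dorsally. Among growth factor genes, Egfr had 3.7 FPKM ventrally and 0.212 dorsally, and Pdgfc had 57.3 FPKM ventrally and 21 dorsally. Igfbp5, an insulin-like growth factor binding protein, had 348 FPKM ventrally and 94.7 dorsally. Of 6 kept EGF ligand and ErbB receptor genes 2 (33.3%) were higher ventrally and 1 (16.7%) dorsally, the latter with a difference of -2.81. Of 9 PDGF and VEGF ligand and receptor genes 1 (11.1%) was counted on each side. Of 15 insulin-like growth factor genes 2 (13.3%) were higher ventrally and none dorsally. The MAP kinase phosphatase genes Dusp2 and Dusp7 stood at 4.01 FPKM ventrally against a listing at 0 dorsally and at 19.6 FPKM ventrally against 8.92 dorsally, beside Dusp5 among the leading ventral genes at 67.2 FPKM ventrally against 0.338 dorsally.

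Genes of cell contacts were then read by junction type. Over all kept features, 10.4% were higher ventrally and 9.42% dorsally. Of 10 kept desmosome genes, 4 were higher ventrally and none dorsally (median 0.63). Pkp2 had 32 FPKM ventrally and 6.43 dorsally, Pkp4 had 85.4 FPKM ventrally and 34.7 dorsally and Pkp3 had 8.26 FPKM ventrally and 3.38 dorsally, all plakophilins that link desmosomes to keratin filaments. Of 8 genes of hemidesmosomes and epithelial anchoring, 3 (37.5%) were higher ventrally and none dorsally (median 0.83). Among the 3, Itga6 had 61.3 FPKM ventrally and 22.9 dorsally, and Lamb3 had 3.66 FPKM ventrally and 0.572 dorsally. The connexins, which form gap junctions, had 5 of 9 (55.6%) higher ventrally and none dorsally (median 1.53). Gja1 (connexin 43) had 152 FPKM ventrally and 52 dorsally, and the other counted members were under 5 FPKM in both regions, for example Gja5, which had 2.4 FPKM ventrally and 0.0106 dorsally, and with a minimum of 5 FPKM the median turned to -0.69. Claudins, the core of tight junctions, had 1 of 12 (8.33%) higher ventrally, near the share of all features, and 4 (33.3%) dorsally (median -0.20). Cldn1, a claudin of skin, had 6.24 FPKM ventrally and 0.346 dorsally, while Cldn23 had 0.311 FPKM ventrally and 2.64 dorsally and Cldn10 was listed at 0 ventrally and had 1.36 FPKM dorsally. Of 10 protocadherins, 5 (50.0%) were higher ventrally and 2 (20.0%) dorsally. Pcdh7 had 57.7 FPKM ventrally and 18.9 dorsally, and Pcdh18 had 28.8 FPKM ventrally and 6.54 dorsally. The surface ectoderm markers, which summed to 260.2 FPKM ventrally and 38.2 dorsally, share Perp and Cldn1 with these groups and Trp63 and keratins with the tissues that carry desmosomes and hemidesmosomes, and their part in these counts was not tested.

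Extracellular matrix genes were counted on both sides. Collagens had 3 of 20 higher ventrally and 4 dorsally, and other matrix glycoproteins and proteoglycans 10 of 48 (20.8%) higher ventrally and 8 (16.7%) dorsally, against 10.4% and 9.42% of all features. Laminins and nidogens, among them the Lamb3 named with the hemidesmosome, had 3 of 11 (27.3%) higher ventrally and none dorsally (median 0.48). Agrn (agrin) had 80.3 FPKM ventrally and 39.5 dorsally, and the basement membrane collagen genes Col4a5 and Col4a6 stood at 16.3 FPKM ventrally against 4.73 dorsally and at 9.18 FPKM ventrally against 2.37 dorsally. Frem1 had 11.8 FPKM ventrally and 4.33 dorsally and Frem2 had 70.9 FPKM ventrally and 32.4 dorsally, 2 genes of the complex that ties epidermis to dermis. Of 12 lysyl oxidases and related enzymes none was higher ventrally and 4 (33.3%) were dorsally (median -0.43): P4ha3, a collagen prolyl hydroxylase subunit, had 52.3 FPKM ventrally and 166 dorsally, and Loxl2, a cross-linking enzyme, had 13.7 FPKM ventrally and 33.5 dorsally. Fn1 (fibronectin) had 104 FPKM ventrally and 226 dorsally, and Spock2, a secreted proteoglycan, had 54 FPKM ventrally and 311 dorsally. Gpc4, a glypican that holds growth factors at the cell surface, had 35.4 FPKM ventrally and 5.45 dorsally, and Fmod (fibromodulin) had 21.6 FPKM ventrally and 4.92 dorsally.

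Enzymes of heparan sulfate, hyaluronan and sulfate transfer were counted mostly on the ventral side, with 12 of 32 (37.5%) higher ventrally and 1 dorsally, against 10.4% and 9.42% of all features, and a median of 0.49. Ext2, a subunit of the enzyme that builds the heparan sulfate chain, had 185 FPKM ventrally and 60.2 dorsally. Hs3st3b1, which adds a rare sulfate to it, had 6.05 FPKM ventrally and 2.36 dorsally, Has1 (hyaluronan synthase) had 4.12 FPKM ventrally and 0.50 dorsally, and Chst12 had 7.13 FPKM ventrally and 2.12 dorsally. The exception was Sult4a1, which had 0.106 FPKM ventrally and 4.18 dorsally. Enzymes that add sugars to proteins and lipids were counted mostly on the dorsal side, with 3 of 59 higher ventrally and 11 (18.6%) dorsally, although their median was -0.09. B4galnt2 had 2.61 FPKM ventrally and 24.5 dorsally, Mgat4b had 6.59 FPKM ventrally and 19 dorsally, Fut2, which makes the H blood group antigen of mucosal surfaces, had 0.00656 FPKM ventrally and 2.5 dorsally, and B4galt4 went the other way at 31.5 FPKM ventrally against 2.23 dorsally.

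Serine protease inhibitors were the group of 10 or more kept members with the lowest median, -1.03. They had 1 of 15 (6.67%) higher ventrally and 8 (53.3%) dorsally, against 10.4% and 9.42% of all features. Serpinf1 had 25.1 FPKM ventrally and 62 dorsally, Serpina1b, a copy of the alpha-1 antitrypsin gene, had 8.01 FPKM ventrally and 36.9 dorsally, and Spink3, a trypsin inhibitor of the pancreas, had 1.09 FPKM ventrally and 13.5 dorsally. Serpina1b and Serpina1d belong to a cluster of near-identical copies whose reads may have been split between them. Apolipoproteins and lipid binding proteins had 1 of 16 higher ventrally and 4 dorsally (median -0.57): Fabp1, the liver type fatty acid binding protein, had 36.4 FPKM ventrally and 158 dorsally, Fabp3 had 4.28 FPKM ventrally and 19.6 dorsally, and Apoe had 6.6 FPKM ventrally and 21.9 dorsally. Yolk sac and visceral endoderm markers, which share Apoa1 with this group, summed to 32.7 FPKM ventrally and 71.6 dorsally, and their part in it was not tested. Membrane serine proteases and kallikreins split, with 6 of 19 higher ventrally and 4 dorsally: Prss22 had 22.8 FPKM ventrally and 4.52 dorsally, Klk8 had 15.9 FPKM ventrally and 5.85 dorsally, Klk13 had 14.7 FPKM ventrally and 32.8 dorsally and Prss23 had 3.09 FPKM ventrally and 16 dorsally. S100a11, a calcium binding protein gene, was among the few genes over 100 FPKM that were counted and had 660.1 FPKM ventrally and 164 dorsally.

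Solute carriers as a whole were close to the background of 10.4% and 9.42%, with 27 of 198 (13.6%) higher ventrally and 24 (12.1%) dorsally. Single carriers were far apart. Slc16a10, an aromatic amino acid carrier, had 18.5 FPKM ventrally and 1.14 dorsally, Slc12a2, the sodium, potassium and chloride cotransporter, had 23 FPKM ventrally and 7.48 dorsally, and Slc2a1, the glucose carrier, had 64.6 FPKM ventrally and 135 dorsally. Of 23 potassium channel genes, 3 were higher ventrally and 6 dorsally (median -0.45), among them Kcnh2, a channel of heart repolarization, which had 1.04 FPKM ventrally and 10.2 dorsally. Abcg2, an efflux pump, had 12 FPKM ventrally and 35.6 dorsally, and Fxyd3 (shared span) had 86.5 FPKM ventrally and 22.2 dorsally. None of the 20 kept sodium pump and V-ATPase genes was counted in either direction.

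Genes of the cell cycle were read in 3 groups, those of regulators, of DNA replication and of mitosis. Of 23 cyclins, their inhibitors and growth arrest genes, 10 (43.5%) were higher ventrally and 1 (4.35%) dorsally, against 10.4% and 9.42% of all features (median 0.74). Cdkn1a, the p21 inhibitor of the cell cycle, had 139 FPKM ventrally and 14.1 dorsally, Myc had 95.4 FPKM ventrally and 16.5 dorsally, Cdk6 had 57.2 FPKM ventrally and 20.6 dorsally, and Gadd45a (shared span) had 13 FPKM ventrally and 2.15 dorsally. Cdkn2d, another inhibitor, had 4.61 FPKM ventrally and 15.7 dorsally. Of 36 replication genes 1 was counted in each direction, and of 31 mitosis genes likewise, with medians of -0.04 and -0.34. Genes that promote and genes that halt division were thus both among those higher ventrally.

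Among housekeeping groups, none of the 80 kept ribosomal protein genes was counted, with a median of -0.03, and 2 of 43 proteasome genes were. Subunits of oxidative phosphorylation had none of 88 higher ventrally and 6 (6.82%) dorsally, a share below the 9.42% of all features (median -0.27). Of these 6, Sdhd had 44.2 FPKM ventrally and 113 dorsally, Ndufb8 had 60.5 FPKM ventrally and 128 dorsally, and Cox4i2, an isoform of low oxygen, had 6.1 FPKM ventrally and 31.1 dorsally. Glycolysis genes had 1 of 20 higher ventrally and 3 dorsally (median -0.48), and Gpi1 had 37.6 FPKM ventrally and 86 dorsally. Histone genes had 2 of 75 higher ventrally and 13 (17.3%) dorsally (median -0.40). Hist1h2bm had 457 FPKM ventrally and 1039 dorsally, and Hist3h2ba had 25 FPKM ventrally and 106 dorsally. Histone genes are near copies of one another, so that reads may have been split between them.

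**Figure D4:**
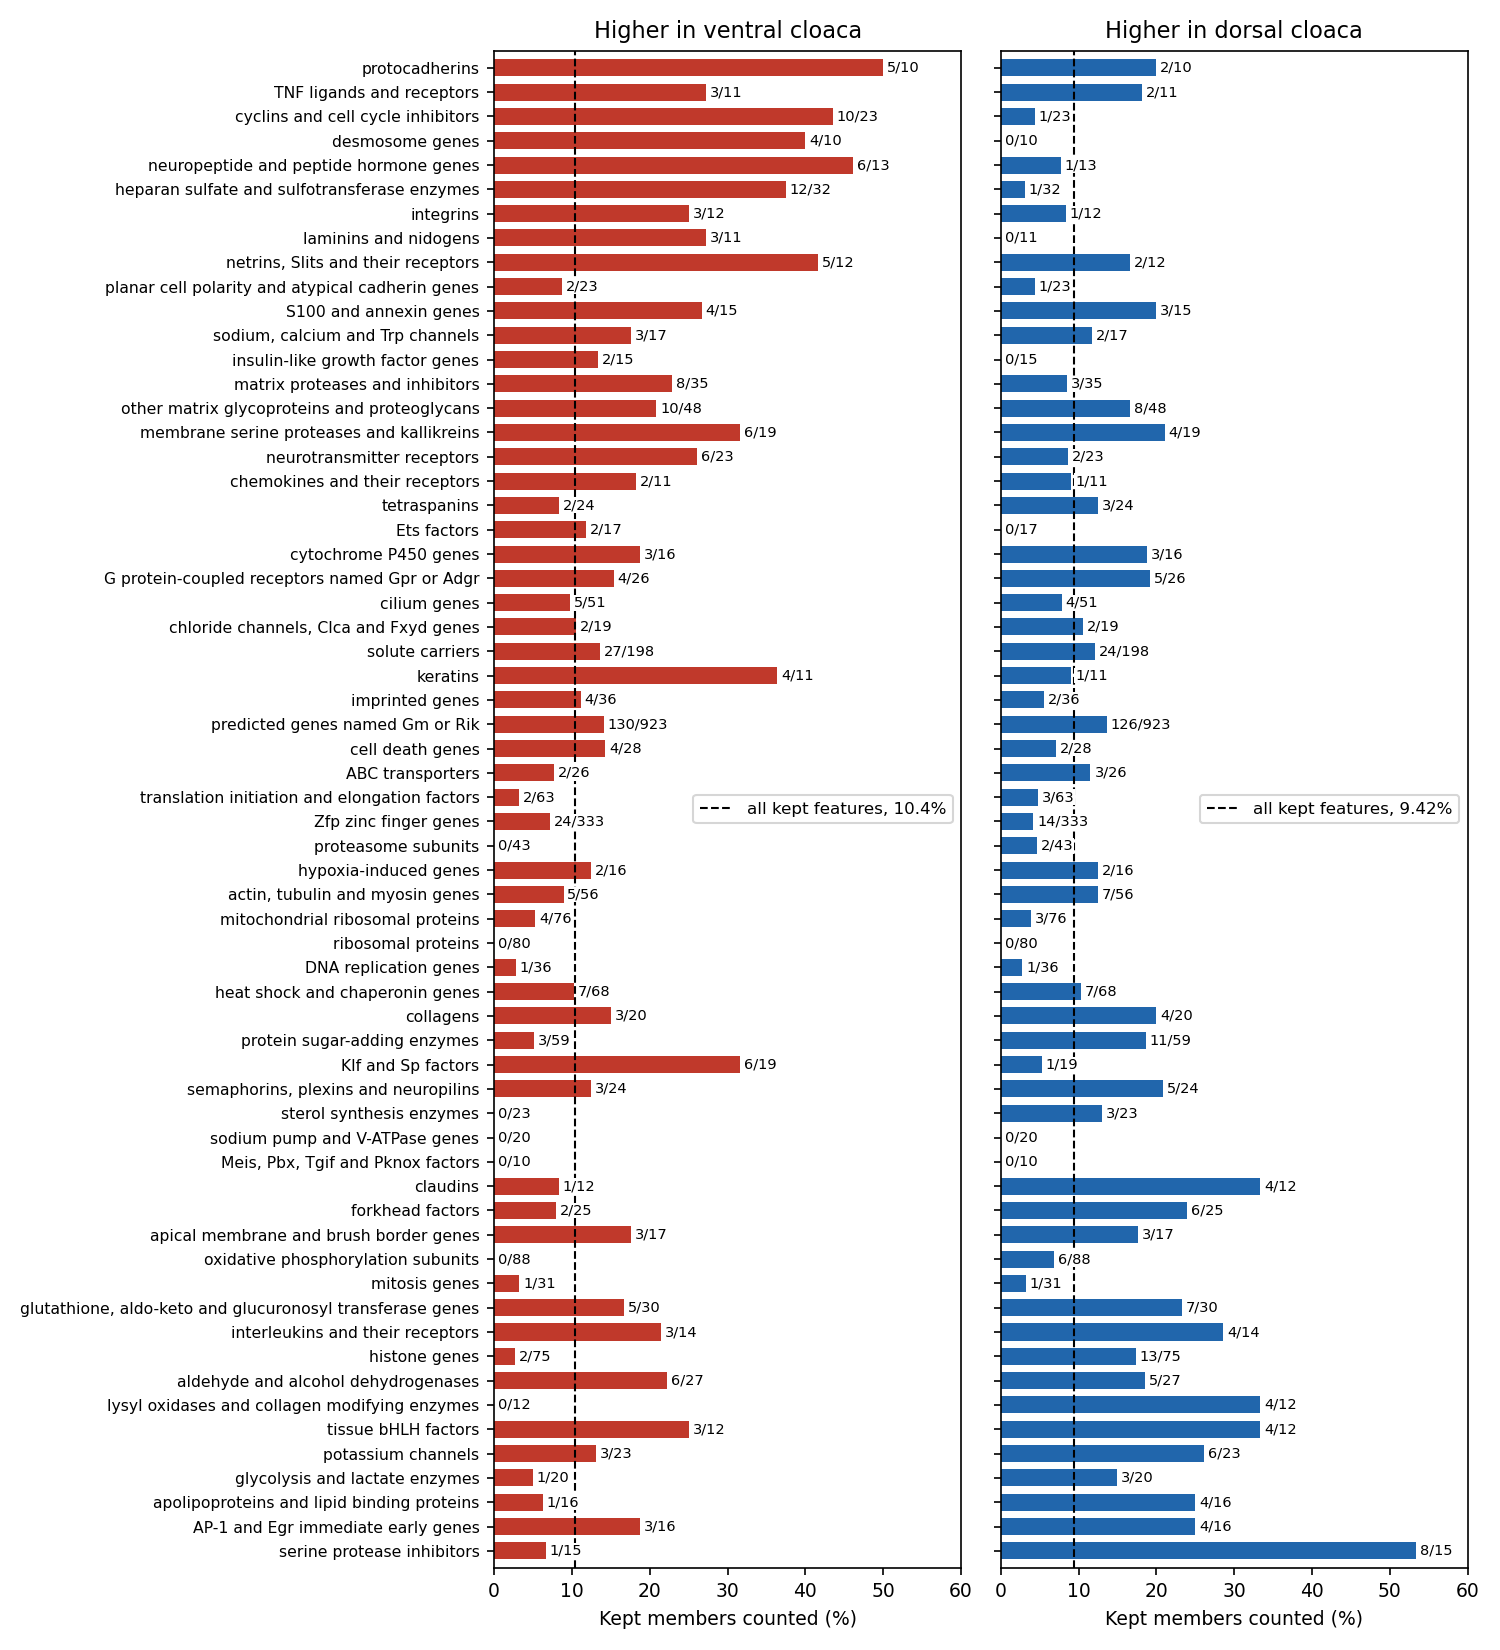
Percentage of kept members counted as higher in the ventral (red, left) or dorsal (blue, right) cloaca for each gene group with at least 10 kept members, with the numbers counted and kept beside each bar, sorted by median difference from high (top) to low. Dashed lines mark the 10.4% and 9.42% of all kept features, and serine protease inhibitors (bottom) have 1 of 15 members in the left panel and 8 of 15 in the right.

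Some counted genes were neighbours on a chromosome. Of 6609 pairs of neighbouring kept features without overlap, both were higher ventrally in 93 (1.41%), both dorsally in 76 (1.15%), and 1 each way in 110 (1.66%). Of all kept features, 10.4% were higher ventrally and 9.42% dorsally, so some neighbours are counted together without any grouping. Whether counted genes lay together more often than these shares give was not tested. There were 16 runs of 3 or more neighbours counted on the same side. The longest ventral run held 5 features on chromosome 5, from 119570129 to 119885218 (mm10). It comprised Tbx3, Tbx5 and the features AW549542, Gm16063 and Gm16065 around them. AW549542 had 3.5 FPKM ventrally and 0.0102 dorsally, and Gm16063 had 4.48 FPKM ventrally and 0.0103 dorsally. The smallest difference in this run was 2.16. On chromosome 12 Sp4, D230030E09Rik and Sp8 formed a ventral run from 118234933 to 118852578, in which Sp4 had 9.19 FPKM ventrally and 4.03 dorsally and D230030E09Rik had 25.4 FPKM ventrally and 8.33 dorsally. A dorsal run on chromosome 8, from 120736376 to 121088154, held Irf8, the long non-coding RNA gene Fendrr and its neighbour Foxf1: Fendrr had 0.139 FPKM ventrally and 2.24 dorsally and Foxf1 had 1.28 FPKM ventrally and 7.08 dorsally. Another dorsal run on chromosome 6, from 125306571 to 125362483, held Ltbr, Scnn1a and Tnfrsf1a, 1 sodium channel gene between 2 receptor genes of the tumour necrosis factor family, and Ltbr had 5.83 FPKM ventrally and 15.6 dorsally.

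Counted genes also differed in kind from the rest. Long non-coding RNA genes made up 7.03% of the features higher ventrally and 5.36% of those higher dorsally, against 2.39% of the features within 2-fold. Transcripts were shorter, with a median of 2985 bases ventrally and 2627 dorsally, against 3522 within 2-fold. Their median GC content was 51.3% ventrally and 52.0% dorsally, against 49.2% within. The counted genes were also lower in level, with a median of 7.24 FPKM (ventral) and 6.56 FPKM (dorsal) in the higher region against 13.4 FPKM for those within 2-fold, and the part of level in the other differences was not tested. Among non-coding genes, Pvt1 (shared span), the neighbour of Myc, had 10.6 FPKM ventrally and 0.538 dorsally, and 4930570G19Rik had 12.7 FPKM ventrally and 0.568 dorsally.

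The E13.5 table, from other embryos and normalized separately, gave a second look at the same genes. There the urethra had 483 features (3.94% of 12262 kept) and the hindgut 550 (4.49%) counted as higher by the same rule, together 8.42%. Of 1060 features higher ventrally at E10.5 and kept at E13.5, 178 (16.8%) were higher in urethra, 50 (4.72%) in hindgut and 832 within 2-fold. Of 920 features higher dorsally, 36 (3.91%) were higher in urethra, 131 (14.2%) in hindgut and 753 within 2-fold. Of the 9437 features within 2-fold at E10.5, 1.72% were higher in urethra and 2.25% were higher in hindgut. Read backwards, 36.9% of the features higher in urethra at E13.5 had been higher ventrally, and 23.8% of those higher in hindgut had been higher dorsally. Across the 11417 features kept at both ages, the 2 differences had a Spearman correlation of 0.18, and 0.23 over 2882 features with a mean of at least 20 FPKM at both ages. These features share the method and the table layout but no embryo.

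Genes that stayed on the ventral and urethral side included Dapl1, with 125 FPKM in urethra against 10.9 in hindgut. Prss35, a protease-like gene, had 6.46 FPKM ventrally and 0.0287 dorsally at E10.5, and had 4.2 FPKM in urethra against 0.0187 in hindgut later. B4galt4 had 10.2 FPKM in urethra and 3.47 in hindgut, and AW549542 of the Tbx3 run had 3.38 FPKM in urethra and 0.39 in hindgut. On the other side, 2610528A11Rik had 1.2 FPKM ventrally and 15.9 dorsally at E10.5, and had 0.383 FPKM in urethra and 60.4 in hindgut. Other genes counted at E10.5 were within 2-fold at E13.5. Agpat4 had 9.6 FPKM ventrally and 28.8 dorsally at E10.5, and later had 28.4 FPKM in urethra and 26.8 in hindgut. D230030E09Rik, of the ventral Sp8 run, was higher in hindgut, with 4.08 FPKM in urethra and 10.7 in hindgut.

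**Figure D5:**
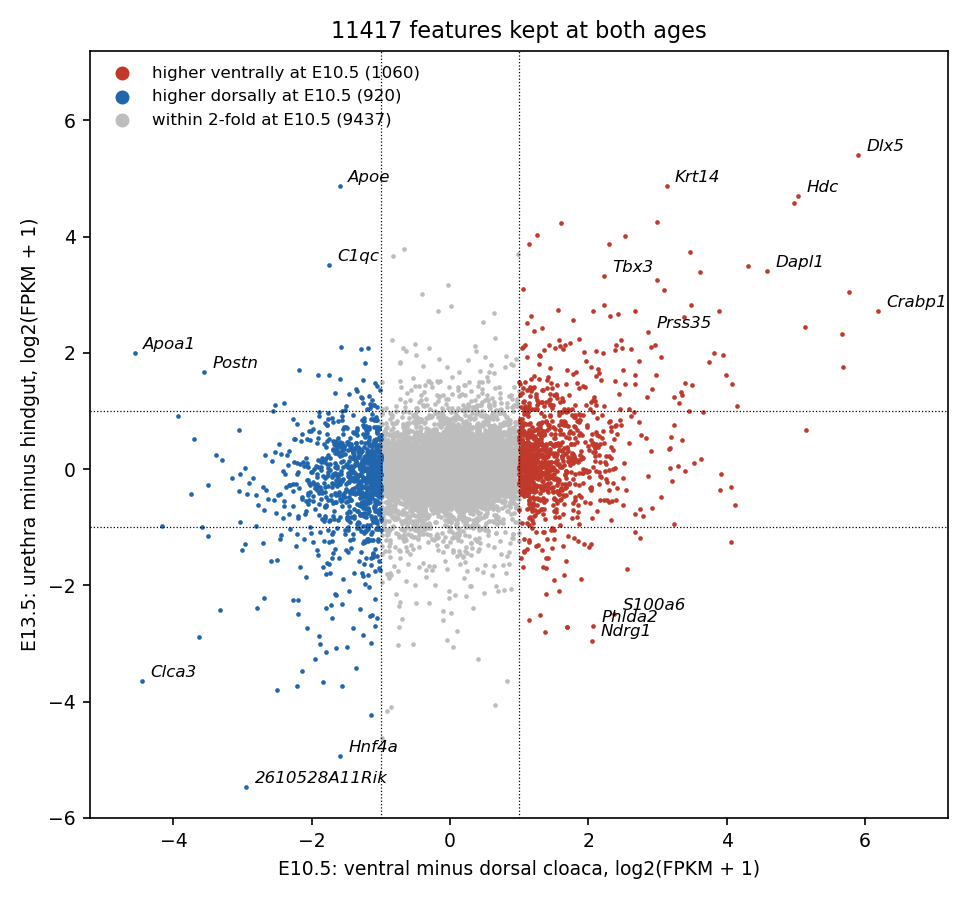
Difference of log2(FPKM + 1) between urethra and hindgut at E13.5 (vertical axis) against that between ventral and dorsal cloaca at E10.5 (horizontal axis) for the 11417 features kept at both ages, with 1 point per feature. Red points were higher ventrally and blue points dorsally at E10.5, dotted lines mark a difference of 1 in either direction, and most red and blue points lie between the horizontal dotted lines, as 832 of 1060 and 753 of 920 did.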

How the data were processed

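The authors deposited FPKM values, 1 column per region in 1 table per age, per the file headers. The submitters' processing notes list Cufflinks 2.2.1 and mm10. Not given in the sources used here are the aligner, the annotation, any use of strand and how libraries were combined. Frozen sections were stained with cresyl violet, tissue was captured by laser, and RNA was amplified with a NuGEN kit, per the labels' protocols.

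Differences of log2(FPKM + 1) were taken with a pseudocount of 1, a minimum of 1 FPKM in either region and a threshold of 1. The work was done in Python 3.11.15 with pandas 2.3.3, numpy 2.4.6 and scipy 1.17.1. The counting step was run on simulated data with planted differences and little noise. That run checks the arithmetic and cannot show how many counted features in these data are false. Values of 0 can be failed estimates, so no ratio of FPKM is given against them, but they enter the differences and the counts. Of the features higher ventrally 72 were listed at 0 dorsally, and of those higher dorsally 104 were listed at 0 ventrally. Named genes are ranks 1 to 40 per direction (features of 5 FPKM or more in their higher region), up to 5 members a side of each of 80 gene groups, 13 marker lists, the most abundant features, runs of 3 or more neighbours, genes on opposite sides at the 2 ages and those at the thresholds; others were chosen after their values were seen. The members and lists were chosen with earlier results of these data known. A median of a group is read as a direction only at 0.5 or more in size. A comparison of promoters between groups is void, because only 78.7% of kept features matched a RefSeq promoter. Transcript lengths come from GENCODE M21. The alternatives were other pseudocounts, minimums, scalings, and features that share a span or are short.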

Additional observations from a re-analysis of the deposited data

Results flagged for a closer look

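Some genes were higher on one side at E10.5 and on the opposite side at E13.5. This difference between ages was not tested, since each region has 1 value at each age. Among the 1060 features higher in the ventral cloaca and kept at E13.5, 50 (4.72%) were higher in the hindgut. The share was 3.44% of all 11417 features kept at both ages, which include those higher dorsally. It was 2.25% of the 9437 features within 2-fold at E10.5, and the difference between these shares was not tested. Of the 50, the 5 with the largest sum of the sizes of both differences are given here. S100a6, a calcium binding protein gene, had a ventral minus dorsal difference of 2.37 at E10.5, with 4.54 FPKM ventrally and 0.0688 dorsally. Its urethra minus hindgut difference at E13.5 was -2.50, with 287 FPKM in urethra and 1628 in hindgut. Ndrg1, a gene induced by stress and differentiation, had a difference of 2.06 at E10.5, with 5.08 FPKM ventrally and 0.459 dorsally. Its difference at E13.5 was -2.95, with 5.16 FPKM in urethra and 46.6 in hindgut. Phlda2, an imprinted growth regulator of the placenta, had 2.06 at E10.5 and -2.69 at E13.5. The scaffold gene Begain had 4.06 at E10.5 and -1.25 at E13.5, and Klk15, a kallikrein, 1.69 at E10.5 and -2.71 at E13.5. Klk15 was low at E10.5, with 2.24 FPKM ventrally and a listing at 0 dorsally.

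Among the 920 features higher in the dorsal cloaca and kept at E13.5, 36 (3.91%) were higher in the urethra. The share was 3.29% of all features kept at both ages, which include those higher ventrally. It was 1.72% of the features within 2-fold at E10.5, and the difference between these shares was not tested. Apoe had a ventral minus dorsal difference of -1.59 at E10.5, with 6.6 FPKM ventrally and 21.9 dorsally, and a urethra minus hindgut difference of 4.87 at E13.5, with 131 FPKM in urethra and 3.52 in hindgut. Apoa1 had differences of -4.56 at E10.5 and 1.99 at E13.5, Postn -3.56 at E10.5 and 1.67 at E13.5, and Cox4i2 -2.18 at E10.5 and 1.70 at E13.5. C1qc, a complement gene of macrophages, had -1.75 at E10.5 and 3.51 at E13.5. It was low at E10.5, with 0.17 FPKM ventrally and 2.935 dorsally. At E10.5 the macrophage markers, C1qc among them, summed to 5.33 FPKM ventrally and 11.1 dorsally, and C1qa and Lyz2 were listed at 0 in both regions. At E13.5 they summed to 64.4 FPKM in urethra and 4.18 in hindgut, with 7 of 9 kept members higher in urethra, among them Tyrobp at 20.3 FPKM in urethra against 0.55 in hindgut and Lyz2 at 10.8 FPKM in urethra against 0.537 in hindgut. The part of macrophages in these values was not tested.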

How the results depend on the processing

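No paired analysis was possible because the tables hold no value per library, and for the same reason the fits without 1 replicate and with the embryo as a block were not run. The size of the counts depends on the pseudocount and the minimum. With a pseudocount of 5 there were 381 features higher ventrally and 308 dorsally, and the share of dorsal features also higher in hindgut was 10.8%; with 0.1 the shares carried to E13.5 were 20.5% on the ventral and 17.4% on the dorsal side. With a minimum of 5 FPKM there were 800 features higher ventrally and 670 dorsally, and the medians of the connexins (-0.69) and of the Zic and Gli-similar factors (-0.52) changed sign. With no minimum the shares carried to E13.5 were 13.9% on the ventral and 11.3% on the dorsal side, and 11 of the 17 gene groups with a median of at least 0.5 in size had a median of 0. Under upper-quartile scaling the counts were 1231 ventrally and 1204 dorsally and under quantile normalization 1190 ventrally and 1238 dorsally. Under both the 17 group medians kept their sign, and of the 832 counted genes that the naming rule takes 18 were no longer counted under upper-quartile scaling and 25 under quantile normalization, none with a change of sign. With a pseudocount of 5, 551 of the 832 were no longer counted, and 8 of the 17 medians were still at 0.5 or more in size, against 3 with no minimum and 13 of the 16 that could be computed with a minimum of 5 FPKM. Depth is unknown, so low genes cannot be weighed by their reads.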

Other observations

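Genes with other roles were also far apart between the regions. Gstk1, a glutathione transferase gene of mitochondria and peroxisomes, had 34.6 FPKM ventrally and 2.91 dorsally, and Mgst3, of the same function in membranes, had 10.9 FPKM ventrally and 47.4 dorsally. Eef2k, the kinase that slows translation elongation, had 8.9 FPKM ventrally and 1.48 dorsally. Mrps24, a mitochondrial ribosome gene, had 56.1 FPKM ventrally and 9.82 dorsally. Of 76 genes of that ribosome 4 (5.26%) were higher ventrally and 3 (3.95%) dorsally, both below the 10.4% and 9.42% of all features. Rsph1, a gene of motile cilia, had 8.45 FPKM ventrally and 0.477 dorsally, and Tekt2, another, had 4.54 FPKM ventrally and 0.546 dorsally. Of 51 cilium genes 5 (9.80%) were higher ventrally and 4 (7.84%) dorsally, near the shares of all features. Fjx1, a regulator of planar cell polarity, had 37.6 FPKM ventrally and 6.38 dorsally. Espn, which bundles actin in microvilli, had 4.57 FPKM ventrally and 18.9 dorsally. Gpr56, an adhesion receptor gene, had 3.18 FPKM ventrally and 17 dorsally. Among 36 imprinted genes 4 (11.1%) were higher ventrally, near the share of all features, and 2 (5.56%) dorsally, below it. Sgce had 12.5 FPKM ventrally against 3.37 dorsally and Ndn had 23.8 FPKM ventrally against 57.9 dorsally. Of the 96 short RNA rows at or above the minimum, which were left out above because FPKM is hard to read for transcripts this short, 28 were higher ventrally and 34 dorsally.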
